A study of Rattus norvegicus with 6 samples.

Results

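The levels of 9 chemokine genes and of the colony-stimulating factor gene Csf1 were followed in cultured granulosa cells, the cells that line the ovarian follicle and feed the oocyte, from rats. The genes were chosen by name, as Ccl2, Ccl5, Ccl7, Ccl20, Cxcl1, Cxcl2, Cxcl10, Cxcl12, Cx3cl1 and Csf1, and all 10 were present among 17525 genes in the deposited table. The cells came from SD rats 21 days old that received 60 IU of PMSG, a gonadotropin that drives follicle growth, 48 h before the ovaries were taken. Ovary pieces were digested with pancreatic enzyme, and the sieved cells were cultured with serum and identified by staining for FSHR, the receptor of follicle-stimulating hormone. The titles name 3 ATR and 3 Control libraries. Only the former are used, the latter being not analysed here, and nothing reported is therefore a response to a treatment. The series' title concerns atrazine, a herbicide, but the labels do not spell out ATR, nor give a dose or say whether animals or cultures were exposed. No label ties the 3 libraries, called ATR 1, ATR 2 and ATR 3, to animals or dishes of their own, and the p values measure only the spread between these samples, which may be technical. Where 3 values stand in a row they are in that order.

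Chemokines are small secreted proteins that guide leukocytes along gradients held on the sugar chains of cell surfaces and matrix. They are grouped by the spacing of their first cysteines into CC, CXC and CX3C types, and they act on G protein-coupled receptors. CSF1 is the growth factor that keeps macrophages alive through its receptor tyrosine kinase, CSF1R. In the ovary, macrophages and other leukocytes take part in ovulation, in the clearing of atretic follicles and in the breakdown of the corpus luteum, and granulosa cells are among the known sources of chemokines there.

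Depth was similar in all 3 libraries, with 18677212 to 19170552 reads assigned to genes. All 30 counts of the 10 genes were whole numbers, within 0.001. Of the granulosa cell markers, Inha (inhibin alpha) stood at 443 ± 73.0 TPM and the transcription factor Foxl2 at 55.1 ± 7.88 TPM (SD, n = 3), and Fshr at 5.80 ± 1.39 TPM, whereas the aromatase gene Cyp19a1 and the anti-Mullerian hormone gene Amh had at most 2.33 reads in a library. TPM, the share of transcripts in units of 1e+06, is scaled for gene length and was used to compare genes. CPM, reads in units of 1e+06 assigned reads after scaling of the libraries, was used to compare libraries. In bulk RNA, fewer cells of a type and less RNA per cell cannot be told apart.

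The 10 genes spanned a wide range of levels. Csf1 was the most abundant, followed by Cxcl12, Ccl2, Ccl7, Cxcl10, Cxcl1, Ccl5, Cx3cl1, Ccl20 and Cxcl2. Of the 10, 7 had a mean of 1 TPM or more, against 71.4% of all genes, and 6 had 10 TPM or more, against 50.2%. Csf1 alone passed 100 TPM, a level reached by 10.7% of genes. Together the 10 genes summed to 243, 320 and 231 TPM. The ranges of Csf1 and Cxcl12 did not overlap, nor did those of Cxcl1 and Ccl5, of Ccl5 and Cx3cl1, or of Cx3cl1 and Ccl20. The ranges of Ccl7 and Cxcl10 overlapped, although Ccl7 was the higher in each of the 3 libraries. The other neighbours, Cxcl12 and Ccl2, Ccl2 and Ccl7, Cxcl10 and Cxcl1, and Ccl20 and Cxcl2, overlapped in range and were not in the same order in every library.

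**Figure D1:**
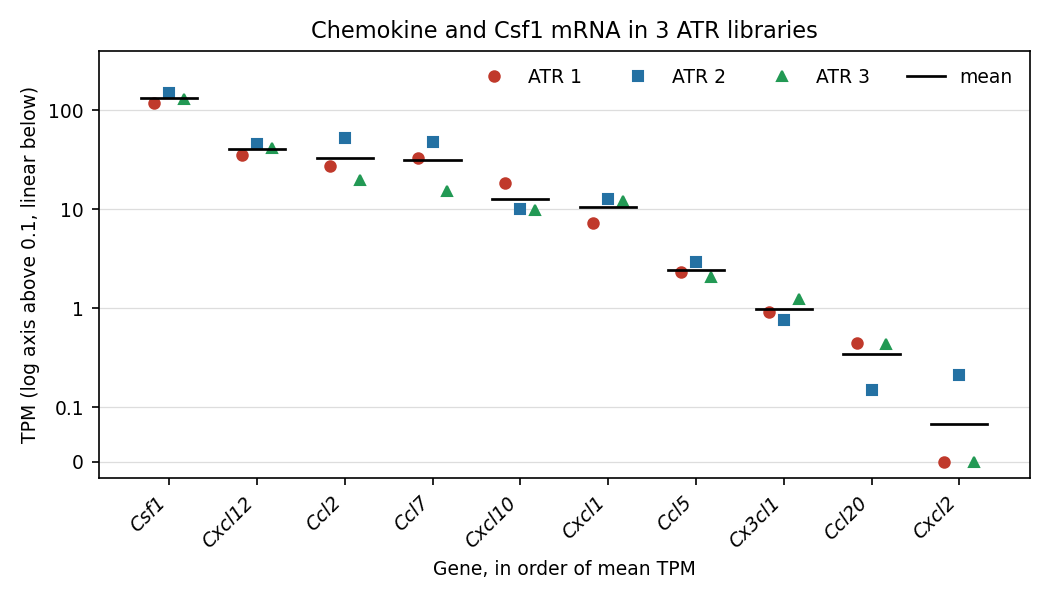
TPM of the 10 genes in each ATR library (points) with the mean over the 3 libraries (lines), on an axis that is logarithmic above 0.1 TPM and linear below. Csf1 lies above all others in every library, Ccl2 and Ccl7 show wide gaps between libraries, and Cxcl2 is at 0 in ATR 1 and ATR 3.

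Spread between the libraries was tested with a chi-square test of each gene's 3 counts against the scaled library sizes, with Benjamini-Hochberg adjustment over 13309 genes with at least 30 reads in all. The test compares these libraries and no conditions. Of the 10 genes, 8 had enough reads for it, and Ccl20 and Cxcl2 did not. Spread beyond counting noise was found for 6 of the 8, Csf1, Ccl2, Ccl7, Cxcl1, Cxcl10 and Cxcl12, against 23.2% of all genes tested. Ccl5 and Cx3cl1 did not pass. Of the 8 tested, 5 both passed and were highest in ATR 2, against 7.45% of all genes tested, and Cxcl10 passed and was highest in ATR 1. Regardless of any test, 34.1% of genes were highest in ATR 2. A common extra spread between the libraries, biological or technical, was then estimated over the genes and added to counting noise. With it 3 of the 8 genes still passed, namely Ccl2, Ccl7 and Cxcl10, against 3.25% of all genes. Without ATR 1 the count fell to 3 as well, namely Ccl2, Ccl7 and Csf1, against 11.9% of all genes then tested.

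**Figure D2:**
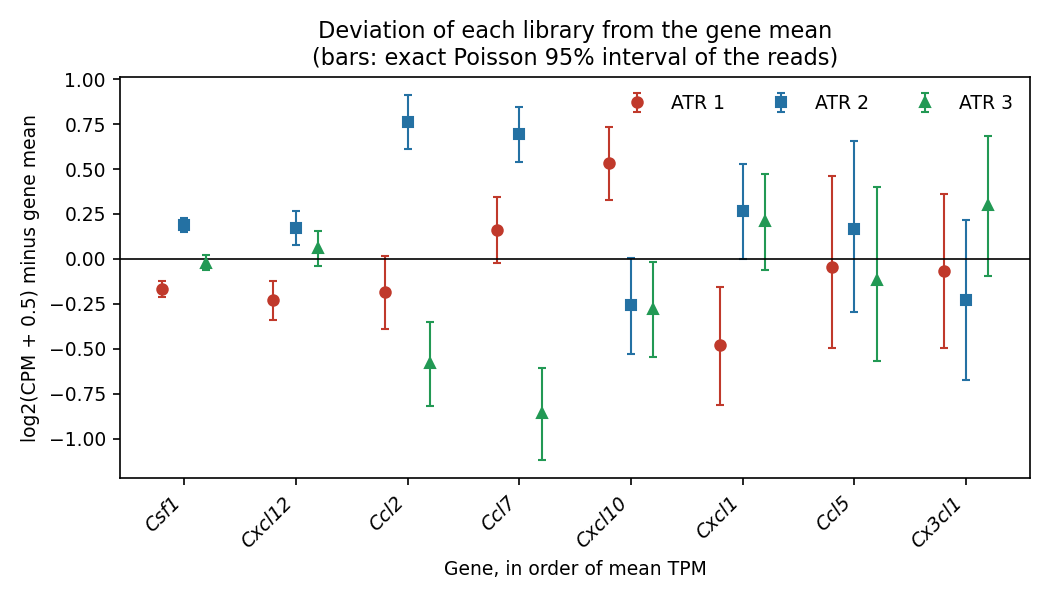
Deviation of each library from the gene's mean, as log2(CPM + 0.5), for the 8 genes with at least 30 reads, with exact Poisson 95% intervals of the reads, which cover counting error only. ATR 2 lies highest for Csf1, Cxcl12, Ccl2 and Ccl7, while Cxcl10 is highest in ATR 1, and the intervals of Ccl5 and Cx3cl1 overlap between libraries.

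Csf1 (gene 78965) stood at 119, 148 and 129 TPM, with a mean of 132 TPM (coefficient of variation 11.4%, n = 3). It rested on 4086, 5138 and 4518 reads and exceeded 91.9% of all genes in mean TPM. ATR 2 was the highest library and ATR 1 the lowest, with a read ratio of 1.28 (exact 95% interval 1.23 to 1.33). The chi-square test gave a Benjamini-Hochberg adjusted p of 1.1e-29. The SD on the log2 scale was 0.18, against a median of 0.05 for 793 genes at a like level, that is, with a mean CPM within 1.5-fold. With the common extra spread added, its adjusted p was 0.9999.

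The receptor of CSF1 was low in the same cells. Csf1r, which marks macrophages and monocytes, stood at 2.82, 3.24 and 3.23 TPM, and its spread did not pass the test (chi-square, adjusted p = 0.671). Csf1 exceeded Csf1r by 40.0 to 45.7 times in TPM within each library. The other ligand of that receptor, Il34, had 0, 1 and 1 reads. Csf3, the granulocyte factor, had 8, 7 and 6 reads. Csf2ra, a chain of the GM-CSF receptor, stood at 4.81 ± 0.634 TPM (SD, n = 3), while its signalling partner Csf2rb had 3, 3 and 5 reads. Of 7 measured genes of that list of factors and receptors, 3 reached 1 TPM. Of 3 tested Csf1 was the only gene called, against 23.2% of all genes tested.

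Ccl2 and Ccl7 encode the monocyte chemoattractant proteins MCP-1 and MCP-3, which both act on the receptor CCR2. Ccl2 (gene 24770) stood at 27.3, 52.8 and 19.8 TPM, from 181, 352 and 135 reads. Ccl7 (gene 287561) stood at 33.0, 47.3 and 15.1 TPM, from 227, 327 and 107 reads. Both were highest in ATR 2 and lowest in ATR 3. The read ratio of ATR 2 to ATR 3 was 2.65 (exact 95% interval 2.17 to 3.25) for Ccl2 and 3.10 (2.49 to 3.90) for Ccl7. ATR 1 lay between, and its place differed between the genes: ATR 2 exceeded it 1.98-fold (1.65 to 2.38) for Ccl2 and 1.46-fold (1.23 to 1.74) for Ccl7.

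The spread of these genes was wide for their level. Their SDs on the log2 scale were 0.69 for Ccl2 and 0.79 for Ccl7. With 1 library left out, the SD of Ccl2 was smallest without ATR 2, at 0.28, and that of Ccl7 without ATR 3, at 0.38. Only 1.54% of 2072 genes at a like level had a larger SD than Ccl2, and 1.22% of 2057 had a larger SD than Ccl7, where the median was 0.10. The chi-square test gave adjusted p values of 1.5e-25 for Ccl2 and 9.7e-24 for Ccl7. With the common extra spread added they were 2.5e-09 and 1.1e-08. Without ATR 2 the call of Ccl2 was lost (adjusted p = 0.0614), whereas Ccl7 still passed (1.9e-09). Ccl7 also passed the chi-square test without ATR 3 (adjusted p = 0.000125) and without ATR 1 (1.3e-24). Within libraries, Ccl2 divided by Ccl7 in TPM gave 0.827, 1.12 and 1.31, so neither gene was the higher one in all libraries. They are next to each other among the protein-coding genes of the RefSeq assembly GRCr8.

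Among the 10264 genes that averaged 5 TPM or more, the 5 whose log2(TPM + 1) deviations over the 3 libraries lay nearest to those of Ccl2 were Cd55, LOC108348074, Olr1, Eln and Cyp1a1. Cd55, a membrane protein that restrains complement, stood at 24.9, 51.1 and 18.4 TPM. Eln, elastin, stood at 55.4, 95.9 and 44.1 TPM, and Cyp1a1, a xenobiotic-metabolising enzyme, at 6.14, 12.6 and 5.18 TPM. Olr1, a scavenger receptor for oxidised lipoprotein, stood at 9.43, 19.8 and 6.17 TPM. Ccl7 ranked 19 by this distance, Csf1 433, Cxcl12 955, Cxcl1 4936 and Cxcl10 10091. With 3 libraries the likeness is a description of these libraries alone.

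The other CC chemokines were scarce. Ccl5, which attracts T cells and monocytes through CCR1 and other receptors (gene 81780), stood at 2.33, 2.95 and 2.06 TPM from 11, 14 and 10 reads. With 35 reads in all, its spread did not pass the test (chi-square, adjusted p = 0.798). Ccl20, the ligand of CCR6 (gene 29538), had 3, 1 and 3 reads, at 0.440, 0.150 and 0.430 TPM. Such counts cannot be told apart between libraries.

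**Figure D3:**
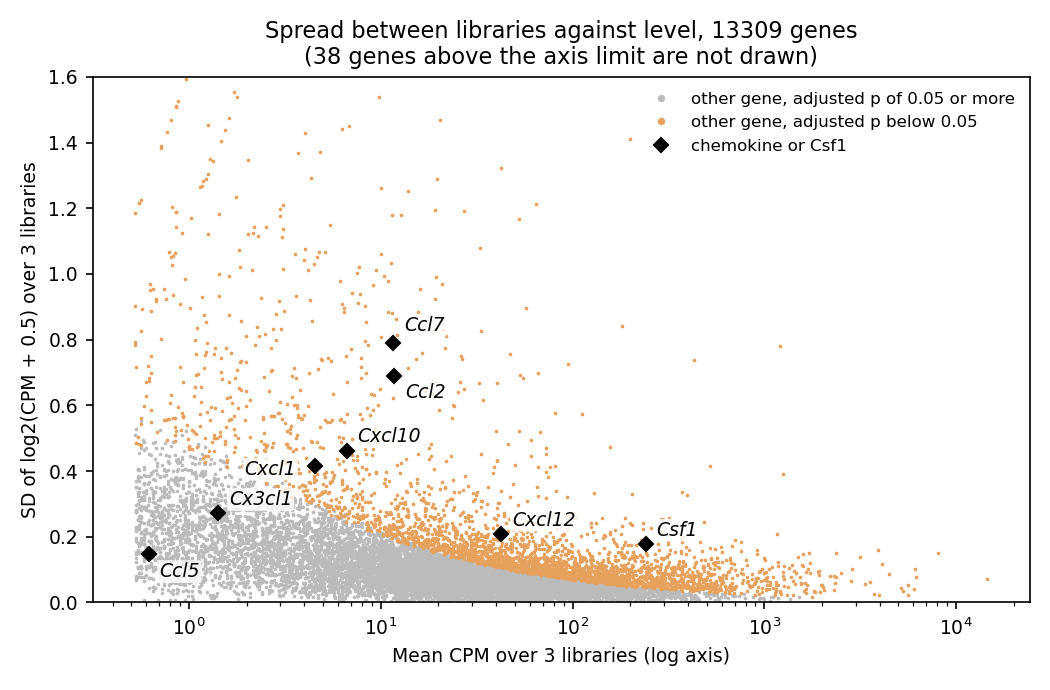
SD of log2(CPM + 0.5) over the 3 libraries against mean CPM for the 13309 genes with at least 30 reads, with genes past and not past the adjusted p threshold of 0.05 in different colours and 8 of the 10 genes as diamonds. Ccl2 and Ccl7 lie far above most genes of their level, whereas Ccl5 and Cx3cl1 lie within the bulk.

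Cxcl1 and Cxcl2 encode neutrophil attractants of the rat that act on CXCR2, and they are neighbours among the protein-coding genes of the GRCr8 assembly. Their levels were far apart. Cxcl1 (gene 81503) stood at 7.23, 12.6 and 12.0 TPM, from 58, 102 and 99 reads, with a mean of 10.6 ± 2.96 TPM (SD, n = 3). ATR 1 was the low library, and ATR 2 exceeded it 1.79-fold (exact 95% interval 1.28 to 2.51), while ATR 2 and ATR 3 had a ratio of 1.05 (0.786 to 1.39). The chi-square test gave an adjusted p of 0.00488, which became 0.899 without ATR 1 and 0.233 with the common extra spread added. Cxcl2 (gene 114105) had 0, 2 and 0 reads. A count of 0 allows up to 3 reads, or 0.1574 CPM in ATR 1 and 0.1575 CPM in ATR 3. The related Cxcl3 lay between, at 2.29, 3.14 and 2.23 TPM, and Cxcl1 exceeded it by 3.16 to 5.39 times.

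The promoters of these genes are shown because Cxcl1, Cxcl2, Ccl20 and Cxcl10 are textbook targets of NF-kB, the inducible factor of inflammatory signalling, and yet differed widely in level here. RefSeq promoter windows of the build GRCr8 were found for 7 of the 10 genes, with none for Ccl2, Ccl5 and Csf1. In the 7, the 250 bases before the annotated start site were searched on both strands. The NF-kB consensus was matched in 4 of the 7, namely these 4 genes, and in 3.54% of all 33469 windows of that length. The interferon-stimulated response element, searched as GAAA, any 2 bases and GAAA, was matched in Cxcl10 alone and in 3.41% of all windows. Each sequence below runs 5′ to 3′ towards the start site, with matches of both motifs in capitals.
Cxcl1: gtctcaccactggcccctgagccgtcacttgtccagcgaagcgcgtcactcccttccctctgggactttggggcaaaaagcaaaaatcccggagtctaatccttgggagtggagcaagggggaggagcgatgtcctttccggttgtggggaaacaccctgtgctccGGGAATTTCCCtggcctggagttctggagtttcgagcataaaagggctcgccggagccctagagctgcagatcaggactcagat
Cxcl2: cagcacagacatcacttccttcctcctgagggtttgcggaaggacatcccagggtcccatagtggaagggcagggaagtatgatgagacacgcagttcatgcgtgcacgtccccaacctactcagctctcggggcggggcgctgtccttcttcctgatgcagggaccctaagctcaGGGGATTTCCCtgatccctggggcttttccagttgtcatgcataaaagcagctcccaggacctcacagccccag
Ccl20: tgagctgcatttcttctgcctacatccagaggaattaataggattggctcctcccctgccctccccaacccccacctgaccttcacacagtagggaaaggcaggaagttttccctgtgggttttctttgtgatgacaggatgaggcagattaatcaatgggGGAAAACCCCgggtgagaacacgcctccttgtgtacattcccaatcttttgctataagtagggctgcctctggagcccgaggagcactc
Cxcl10: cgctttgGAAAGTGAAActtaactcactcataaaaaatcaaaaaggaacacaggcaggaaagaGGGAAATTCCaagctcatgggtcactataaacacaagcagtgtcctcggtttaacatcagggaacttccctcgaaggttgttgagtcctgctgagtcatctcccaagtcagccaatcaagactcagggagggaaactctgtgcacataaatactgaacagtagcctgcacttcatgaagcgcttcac

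The window of Cxcl1 is chr14:17479322-17479571 on the minus strand, and that of Cxcl2 is chr14:17467256-17467505, also on the minus strand. The window of Ccl20 is chr9:91836909-91837158 and that of Cxcl10 is chr14:15988816-15989065, both on the plus strand. In Cxcl1 the NF-kB match began 84 bases before the start site, as GGGAATTTCC, and overlapped a second match on the other strand. In Cxcl2 overlapping matches began 74 and 73 bases before the start, the first as GGGGATTTCC. In Ccl20 the match lay on the minus strand, as GGGGTTTTCC, 89 to 80 bases before the start. In Cxcl10 the response element began 243 bases and the NF-kB match 187 bases before the start. The 4 genes with a match stood at means of 10.6, 0.070, 0.340 and 12.7 TPM for Cxcl1, Cxcl2, Ccl20 and Cxcl10, so a match went with both well-measured and barely detected transcripts.

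Cxcl10, or IP-10, is induced by interferon and attracts activated T cells through CXCR3. Cxcl10 (gene 245920) stood at 18.4, 10.00 and 9.79 TPM, from 181, 99 and 99 reads, with a mean of 12.7 ± 4.90 TPM (SD, n = 3). It was the only one of the 6 varying genes that was highest in ATR 1, which exceeded ATR 2 by 1.80-fold (exact 95% interval 1.40 to 2.32) and ATR 3 by 1.83-fold (1.42 to 2.36). ATR 2 and ATR 3 had a ratio of 1.02, with an interval of 0.761 to 1.36 that includes 1. The chi-square test gave an adjusted p of 5.1e-07, or 0.00404 with the common extra spread added, and 0.971 without ATR 1. Cxcl11, its neighbour in the RefSeq assembly and a ligand of the same receptor, had 1, 0 and 0 reads.

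The interferon-response list moved in the same direction. All 19 of its measured genes reached 1 TPM, 16 of 19 passed the chi-square test, against 23.2% of all genes tested, and 15 of 19 passed and were highest in ATR 1, against 8.25%. On the log2 scale the list's median deviation from the gene means was 0.50, -0.26 and -0.20, beside 0.53, -0.26 and -0.28 for Cxcl10. Isg15, a ubiquitin-like protein, stood at 125, 61.9 and 55.4 TPM, and Usp18, which removes it from its targets, at 13.1, 2.49 and 1.95 TPM. B2m, Irf1 and Psmb8 did not pass the test. The part of an interferon response in the level of Cxcl10 was not tested, and Ifng and Ifnb1 are not analysed here.

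**Figure D4:**
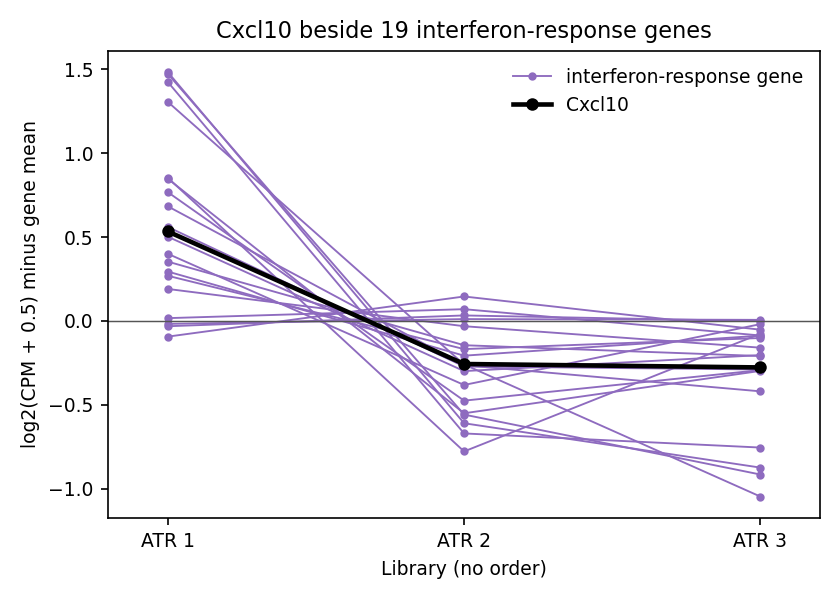
Deviation of log2(CPM + 0.5) from the gene mean in each ATR library for Cxcl10 (thick line) and 19 interferon-response genes (thin lines); lines join the values of 1 gene and the libraries have no order. Cxcl10 lies at 0.53 in ATR 1 and at -0.26 and -0.28 in the others, within the band of the interferon-response genes.

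Cxcl12, or SDF-1, is a chemokine that most stromal cells make without stimulation and that holds stem cells and leukocytes through CXCR4. Cxcl12 (gene 24772) stood at 35.0, 45.6 and 41.7 TPM, from 686, 895 and 840 reads, with a mean of 40.7 ± 5.38 TPM (SD, n = 3). ATR 1 was lowest, and ATR 2 exceeded it 1.33-fold (exact 95% interval 1.20 to 1.47), while the ratio of ATR 2 to ATR 3 was 1.08 (0.984 to 1.19). The chi-square test gave an adjusted p of 1.5e-06, which became 0.336 without ATR 1 and 0.962 with the common extra spread added. Its SD of 0.21 on the log2 scale compared with a median of 0.06 for genes at a like level.

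The promoter window of Cxcl12, chr4:152060531-152060780 on the plus strand of GRCr8, had no match to the NF-kB consensus. It is shown for contrast with the inducible genes above, since it held 3 GC boxes, searched as GGGCGG on both strands and given in capitals.
Cxcl12: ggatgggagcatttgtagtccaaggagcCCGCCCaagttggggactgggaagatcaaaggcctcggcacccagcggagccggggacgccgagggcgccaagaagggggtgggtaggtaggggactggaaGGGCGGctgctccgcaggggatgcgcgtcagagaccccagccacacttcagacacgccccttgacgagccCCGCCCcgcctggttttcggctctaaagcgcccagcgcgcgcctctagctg

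A GC box was found in 30.5% of all windows, and among the genes followed here also in Ccl7, Cxcl2 and Cx3cl1. A TATA box, searched as TATAAA on both strands, was found in the windows of Ccl7, Cxcl10 and Cx3cl1 and in 12.9% of all windows. In these 7 windows no match of one motif overlapped that of another. The TATA box began 34 bases before the start site in Ccl7, but 162 bases before it in Cxcl10 and 78 in Cx3cl1. In Ccl7 neither the NF-kB consensus nor the response element was matched.

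Cx3cl1, fractalkine, is a membrane-bound chemokine whose stalk is cut by ADAM10 and ADAM17. Cx3cl1 (gene 89808) stood at 0.920, 0.760 and 1.25 TPM, from 25, 21 and 35 reads, with a mean of 0.977 ± 0.250 TPM (SD, n = 3). Its highest library, ATR 3, and its lowest, ATR 2, were not separated by the test (chi-square, adjusted p = 0.336). Its receptor Cx3cr1 had 13, 20 and 23 reads and was higher than its ligand in TPM in each library, by 1.22 to 2.26 times. Cxcl16, the other membrane-bound chemokine, stood at 17.5, 25.8 and 20.5 TPM, or 16.4 to 33.9 times the level of Cx3cl1, with ATR 2 highest (chi-square, adjusted p = 1.4e-05).

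The measured receptors through which these chemokines signal had few reads, whereas a pair of scavenging receptors was abundant. Of 12 measured genes of the receptor list, 3 reached 1 TPM: the atypical receptors Ackr3 and Ackr4, which bind chemokines without G protein signalling and clear them, and Cx3cr1. Ackr3, which takes up CXCL12, stood at 190, 213 and 193 TPM, a mean of 199 ± 12.8 TPM (SD, n = 3). It exceeded its ligand Cxcl12 by 4.62 to 5.43 times, and the signalling receptor Cxcr4, at 7, 10 and 11 reads, by 271 to 413 times within libraries. Ackr4, a scavenger of CC chemokines, stood at 39.8, 50.7 and 41.7 TPM.

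Both scavengers passed the chi-square test with ATR 2 as the highest library (adjusted p = 1.9e-07 for Ackr3 and 5.8e-08 for Ackr4), as Csf1, Ccl2, Ccl7, Cxcl1 and Cxcl12 did. They were 2 of 3 tested genes of the receptor list, and 7.45% of all genes tested passed and were highest in ATR 2. Cxcr3, the receptor of CXCL10, had 2, 1 and 0 reads. Cxcr1 had 0, 1 and 1 reads, and Ccr1 had at most 6 in a library. Ccr2, Ccr6 and Cxcr2, the receptors of CCL2 and CCL7, of CCL20 and of CXCL1 and CXCL2, are not analysed here.

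**Figure D5:**
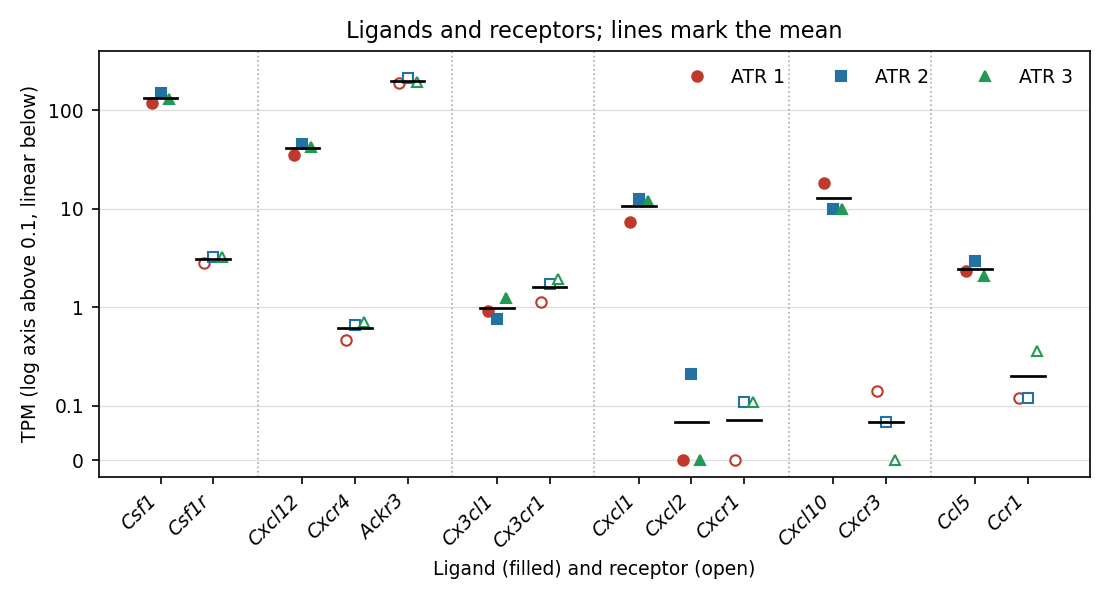
TPM of ligands (filled) and of 7 receptors (open) in each ATR library, with lines at the means. The axis is logarithmic above 0.1 TPM and linear below. Cxcr1 is drawn beside Cxcl1 and Cxcl2, whose receptor gene named in the text, Cxcr2, is not analysed here. Csf1, Cxcl12, Cxcl1, Cxcl10 and Ccl5 lie above the signalling receptors drawn beside them, Cx3cr1 lies above Cx3cl1, and Ackr3 lies above Cxcl12.

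Among all 26 measured chemokine ligands of 36 listed, which include the 9 chemokines above, 12 reached 1 TPM and 6 reached 10 TPM. Those 6 were Cxcl12, Ccl2, Ccl7, Cxcl16, Cxcl10 and Cxcl1. The median was 0.742 TPM, against 10.1 TPM over all genes. Of 12 ligands with at least 30 reads, 7 passed the chi-square test, against 23.2% of all genes tested, and 6 passed and were highest in ATR 2, against 7.45%. Beside the genes above these were Cxcl16 and Cxcl13, the B cell attractant, which had 11, 42 and 15 reads. Pf4, platelet factor 4, stood at 8.19, 10.2 and 4.78 TPM from 20, 25 and 12 reads and did not pass (adjusted p = 0.237).

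Cytokines that induce chemokines were at the counting limit, but their receptors were expressed. Tnf had 1, 1 and 3 reads, Il1b 3, 1 and 1, Il1a 1, 5 and 1, and Il6 2, 3 and 0. The receptors Tnfrsf1a and Il1r1 stood at 147 ± 8.39 and 133 ± 7.91 TPM, and Ifngr1, a chain of the interferon gamma receptor, at 72.5 ± 2.09 TPM (SD, n = 3). Of 11 tested genes of that list of cytokines and receptors, 3 passed the chi-square test, against 23.2% of all genes. All 16 genes of the NF-kB core and feedback list reached 1 TPM, among them Rela, a DNA-binding subunit, at 55.0 ± 2.58 TPM and Nfkbia, its inhibitor, at 17.2 ± 0.396 TPM. Of the 16, 2 passed the chi-square test, Nfkbiz and Tnfaip3, or 12.5%, against 23.2% of all genes tested. The difference between these shares was not tested. Both were lowest in ATR 1 and highest in ATR 2, with Tnfaip3, a feedback inhibitor, at 5.48, 7.55 and 6.56 TPM.

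Most of the listed genes that act on chemokine proteins were well expressed. Of 6 measured proteases that cut chemokines, 5 reached 1 TPM, while Mmp9 had 0, 2 and 1 reads. Mmp14 stood at 465 ± 13.6 TPM, and the fractalkine sheddases Adam10 at 91.1, 90.1 and 88.2 TPM and Adam17 at 51.7 ± 1.15 TPM (SD, n = 3), and these 3 genes did not pass the chi-square test. Mmp2, which trims CXCL12 and CCL7, stood at 22.2, 56.5 and 35.5 TPM, and Dpp4, which trims CXCL10 and CXCL12, at 1.67, 3.10 and 1.69 TPM. Both passed the test and were highest in ATR 2, as 2 of 5 tested proteases, against 7.45% of all genes tested. All 14 genes of the heparan sulfate list, which holds the surface and matrix proteoglycans that bind chemokines and the enzymes Ext1, Ext2, Ndst1 and Hs2st1 that build their sugar chains, reached 1 TPM. Of them 8 reached 100 TPM, led by the syndecans Sdc2 at 311 ± 26.3 and Sdc1 at 273 ± 9.01 TPM. Of the 14, 9 passed the test, against 23.2% of all genes, and 5 passed and were highest in ATR 1, against 8.25%. Yet the list's median SD on the log2 scale was 0.063, below the 0.086 of all genes tested. The test passes smaller spreads in genes with more reads.

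Markers of other cells were set beside the levels of chemokines. The 14 measured leukocyte markers summed to 106, 130 and 130 TPM, and 9 of them reached 1 TPM. Lyz2 led at 60.2, 78.6 and 83.2 TPM, while the pan-leukocyte gene Ptprc stood at 0.880, 0.690 and 0.980 TPM. The macrophage receptor Cd163 had 0, 0 and 1 reads. The sums were mostly Lyz2. Cd68, at 12.25, 14.75 and 11.0 TPM, and Cd14, at 18.1, 21.9 and 18.6 TPM, both macrophage genes, were highest in ATR 2. The macrophage genes Adgre1, at 0.550, 0.450 and 0.880 TPM, and Aif1, at 2.17, 1.62 and 3.35 TPM, were instead lowest in ATR 2. None of these passed the test (chi-square, adjusted p = 0.140, 0.191, 0.223 and 0.321). Of the 11 tested leukocyte markers, 5 were highest in ATR 2, against 34.1% of all genes tested, 5 in ATR 3 and 1 in ATR 1. The 9 stromal fibroblast markers summed to 622, 663 and 655 TPM, and 7 of 8 tested passed, against 23.2% of all genes tested. Of the 7, 4 were highest in ATR 2, 2 in ATR 1 and 1 in ATR 3. Of all genes tested, 7.45% passed and were highest in ATR 2, and 8.25% passed and were highest in ATR 1. The 4 highest in ATR 2 were lowest in ATR 1, as Csf1, Cxcl12 and Cxcl1 were: Thy1 at 23.2, 104 and 82.7 TPM, Prrx1 at 12.0, 47.0 and 29.2, Pdgfrb at 9.40, 17.4 and 12.2, and Pdgfra at 1.36, 5.27 and 3.67. The most abundant, Col14a1 and Ogn, were highest in ATR 1, at 333, 267 and 305 TPM and at 204, 181 and 179 TPM. The 13 granulosa markers summed to 3220, 2915 and 2809 TPM, mostly Gja1 at 2036, 1863 and 1821 TPM. The 7 endothelial markers summed to 6.19 to 7.23 TPM, with Pecam1 at 0, 3 and 1 reads and Cdh5 at 0, 1 and 1. The 7 theca markers summed to 82.0, 110 and 116 TPM, of which Star was the most, and Insl3 had 1, 0 and 1 reads. The 11 surface epithelium markers summed to 2178 to 2333 TPM, mostly Upk3b at 1513, 1316 and 1379 TPM. Of these 11, 7 reached 10 TPM, against 50.2% of all genes, and 4 reached 100 TPM, against 10.7%. Beside Upk3b those 4 were Krt8, Lrrn4 and Krt18, with means of 405, 167 and 156 TPM. Of the same list, Krt19 had 3, 1 and 1 reads and Epcam 3, 4 and 6. The 8 smooth muscle markers summed to 16355 to 17698 TPM, mostly Tagln and Acta2, with means of 10890.5 and 5496 TPM. The part of any of these cells in the levels of the chemokines was not tested.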

How the data were processed

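Poly(A) RNA of cultured rat granulosa cells was sequenced in pairs of 150 bases, per the labels' protocols, which name no strand-marking step. The authors deposited 1 table with TPM and an estimated count per library, per the file headers. Tools and builds listed by the submitters' processing notes, with no roles, are fastp 0.20.1, HISAT2 2.2.1, StringTie 2.1.5, Rnor_6.0 and GRCm38. Estimated counts were rounded to whole numbers, and 19.0% to 19.2% of values in a library lay more than 0.001 from one. Libraries were scaled with TMM in edgeR 4.0.16 (R 4.3.3), which also estimated their common extra spread (8.24%), and DESeq2 1.42.0 gave other size factors. Genes with 30 reads or more entered the chi-square test, whose threshold was 0.05. On simulated counts that varied by counting alone, it recovered 95.0% of 100 genes changed 1.5-fold and made 7 false calls in 13311 genes. The changed genes were drawn only from genes with more reads than Ccl5 and Cx3cl1, so the 95.0% does not apply to those members. Reads carry no molecular identifiers, and intervals cover counting error only. The planned contrast with Control was not run. Some listed genes are not reported here. Members and lists were chosen with earlier results of these data known. By rule the text names all 10 members, genes of the chemokine, receptor and factor lists at 1 TPM or as a member's receptor, the 4 highest and the defining genes of other lists, and the 5 genes nearest to Ccl2; further genes were named after their values were seen. RefSeq identifiers (GRCr8) matched 16392 of 17525 genes. Python 3.11.15 with pandas 2.3.3, numpy 2.4.6 and scipy 1.17.1 did the rest, with plots by matplotlib 3.10.9.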

Additional observations from a re-analysis of the deposited data

How the results depend on the processing

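No paired analysis was possible because only ATR libraries were used, and none of the alternatives meant for a contrast with Control was run. Spread beyond counting noise was found for 6 of the 8 tested genes, and also for 6 with DESeq2 size factors, with library totals, with a minimum of 10 reads, with no minimum and with counts rounded down. With 1 library left out the count ranged from 3 to 6. With the common extra spread added to counting noise, an alternative chosen after seeing the data, it was 3. Calls among all genes then went from 3089 to 433. The count at a mean of 1 TPM was 7, and it was between 6 and 8 with limits of 0.5 or 5 TPM, with 1 TPM in every library, or with 1 library left out. Calls among all genes fell from 3089 to 1525, 1867 and 2222 without ATR 1, ATR 2 and ATR 3, where fewer libraries enter the test. At this depth Ccl20 and Cxcl2, with at most 7 reads in all, cannot be compared between libraries.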
